A study of Sus scrofa with 20 samples.

Results

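The genes described here are 8 genes of the hypothalamic control of reproduction, namely the neuropeptide genes GNRH1, KISS1, TAC3 and NPVF, the steroid receptor genes ESR1, ESR2 and PGR, and the aromatase gene CYP19A1. Their members are all probe sets that the platform annotation assigned to one of these symbols, whether bright or dim, which gave 18 of the 47722 probe sets that are not array controls. GNRH1, ESR2, PGR and CYP19A1 each had 2 probe sets, ESR1 had 7, and KISS1, TAC3 and NPVF had 1. Where a gene had several, they were numbered from the highest to the lowest mean, so that probe set 1 is the brightest.

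Expression was measured in the hypothalamus of 10 high-reactive (HR) and 10 low-reactive (LR) German Landrace pigs, with 1 Affymetrix Porcine Snowball array per animal. HR and LR name opposite coping patterns, that is, how a pig responds when it is restrained on its back early in life. According to the methods the animals were chosen both for extreme early behaviour and for their haplotype at a chromosome region associated with it, so behaviour and haplotype cannot be told apart. The labels call the animals adult, the methods place slaughter in the sixth month of life, and sex, litter and hybridisation batch are not given in the labels used here. All animals shared the breed, and no treatment or transgene is named for either group.

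Reproduction is driven by pulses of gonadotropin-releasing hormone, the product of GNRH1, which a small number of scattered neurons release towards the pituitary. In several mammals, neurons of the arcuate nucleus that make kisspeptin (KISS1), neurokinin B (TAC3) and dynorphin pace these pulses, and RFamide-related peptide from NPVF can restrain them. Sex steroids feed back on this circuit through the oestrogen receptors and the progesterone receptor, and aromatase makes oestrogen from androgen within the brain as well as in the gonad. Samples of whole hypothalamus mix all its nuclei, so fewer cells of a type and less RNA per cell cannot be told apart in any value below.

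The array medians lay between 5.14 and 5.26 on the log2 scale, and the correlation between arrays lay between 0.643 and 0.985. Genes of the hypothalamic hormones vasopressin and oxytocin, AVP (mean log2 signal 12.01) and OXT (11.92) both lay at the 99.8th percentile of mean signal. The pituitary hormone genes LHB (6.19), PRL (4.60), CGA (3.23) and FSHB (1.72) lay between the 2.01st and the 66.1st percentile. By mean correlation with the other arrays, HR replicates 5, 9 and 4 (0.847, 0.857 and 0.870) lay lowest, followed by LR replicate 3 (0.873). In its marker means LR replicate 3 stood apart. Its mean over 14 hypothalamus markers was 7.54, against 8.02 or more on all other arrays, and its mean over 8 thalamus markers was 7.82, against 6.85 or less on all others. Differences that it moved by over 1.5 times are given with and without it.

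No probe set of the 8 genes differed between HR and LR past the adjusted threshold of 0.05, and the same was true of the whole array, where limma called 0 of 47722 probe sets (0%). Its unadjusted p was under 0.05 for 2180 probe sets (4.57%), of which 1054 were higher (2.21%) and 1126 lower (2.36%) in HR. None of the 18 members was among them, and none was among the 1872 with an unadjusted rank-sum p under 0.05. Of the members 12 were higher and 6 lower in HR animals, with a median difference of 0.06 on the log2 scale, against a median of 0.02 and 56.2% higher over all probe sets. HR and LR values overlapped in 18 of 18 members, and also in every other probe set of the array (0% without overlap). For 17 of the 18 members, all except TAC3, the 95% interval of the array signal held no change of over 2-fold in either direction. For 14 it held none of over 1.5-fold. Several members are dim, and differences of dim probe sets come out too small. For those, a narrow interval does not exclude a larger change in RNA.

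**Figure D1:**
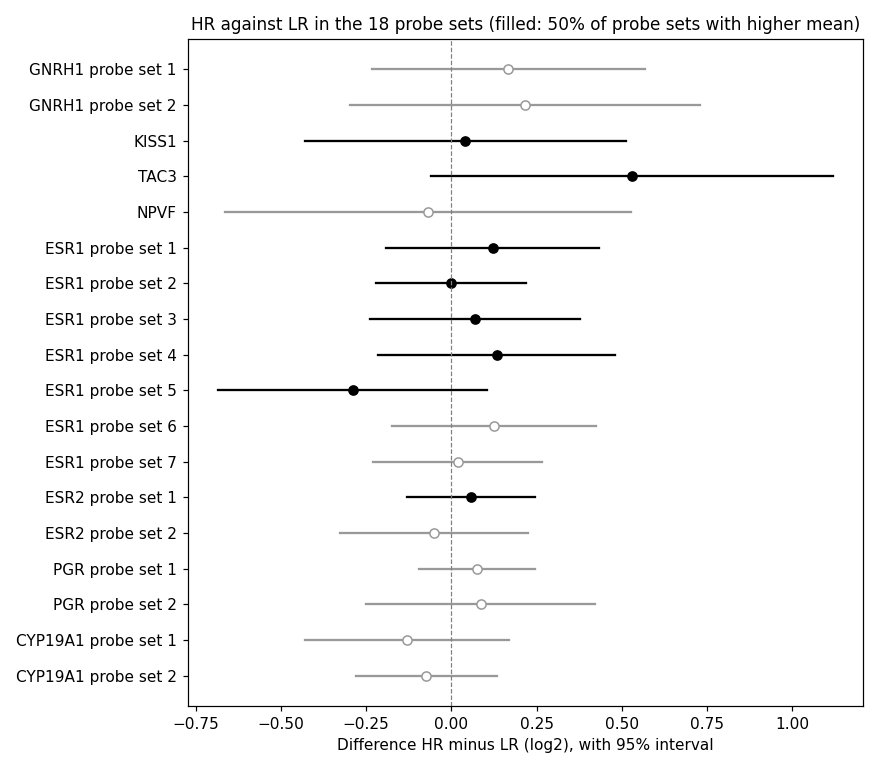
Difference HR minus LR on the log2 scale for each of the 18 probe sets, with its 95% interval from limma. Filled points are probe sets in the 50% of the array with the higher mean. Every interval crosses 0, TAC3 has the largest difference (0.53), and ESR1 probe set 5 has the largest negative one (-0.29).

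GNRH1 (chromosome 14, 9442971 to 9447521) encodes the releasing hormone itself. Its probe set 1 ran from 3.97 through a median of 4.41 to 5.46 in HR animals, and from 3.32 through 4.44 to 4.73 in LR animals (log2 signal). The medians lay close together, 3 HR animals lay above every LR animal, and LR replicate 3 lay below all others. The means were 4.50 ± 0.49 in HR and 4.34 ± 0.42 in LR (SD, n = 10 each), a difference of 0.17 ± 0.19 (SE) with a limma p of 0.396 and an adjusted p of 0.931. Without LR replicate 3 the difference was 0.05 ± 0.17. Probe set 2 was dimmer, with 2.47, 3.09 and 4.43 as lowest, median and highest in HR and 2.29, 3.05 and 4.13 in LR, and a difference of 0.22 ± 0.25, or 0.13 ± 0.25 without LR replicate 3. Both probe sets ordered the animals alike (r = 0.813, rho = 0.782, permutation p of r adjusted over the 25 pairs of probe sets within a gene 0.00025, and r = 0.80 without LR replicate 3). In mean signal probe set 1 lay at the 37.7th and probe set 2 at the 21.4th percentile of the array, and probe set 1 can bind several transcripts.

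KISS1 (chromosome 9, 64834822 to 64841071), the gene of kisspeptin, had close averages in both groups, while its SD in these animals was larger in LR. In HR animals it ran from 7.27 through 7.89 to 8.16, and in LR animals from 6.35 through 7.84 to 8.53. There were 4 LR animals above every HR animal and 2 LR animals below every HR animal. The means were 7.83 ± 0.27 in HR and 7.79 ± 0.72 in LR (SD, n = 10 each), a difference of 0.04 ± 0.23 with a limma p of 0.858. The SD in LR was 2.63 times that in HR, a ratio reached by 0.331% of all probe sets, whose median ratio was 0.81. Without LR replicate 3 the ratio was 1.99, reached by 1.02% of probe sets, and the difference was -0.12 ± 0.18. Among the members KISS1 and TAC3 had the largest ratios, so such shares are favoured by the choice. Other members had the larger SD in HR, down to a ratio of 0.44 for the dim ESR1 probe set 7. KISS1 also went with the array background described below, with r = 0.656 within HR and 0.905 within LR. The spread was described here and not tested, and its relation to the background was not tested either.

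TAC3 (chromosome 5, 22324927 to 22336464), the gene of neurokinin B, had the largest difference among the 18 probe sets. HR animals ran from 8.30 through 8.77 to 9.59 and LR animals from 6.61 through 8.13 to 9.28. Of the LR animals, 6 lay below every HR animal and the other 4 lay between 9.11 and 9.28, in the upper part of the HR range. The means were 8.83 ± 0.41 in HR and 8.30 ± 0.89 in LR (SD, n = 10 each), and the difference of 0.53 ± 0.28 had a 95% interval from -0.06 to 1.12, a limma p of 0.0756 and an adjusted p of 0.916. A difference of this size or larger in either direction was found in 0.591% of probe sets, and 9 of 10 HR animals lay above the LR mean. That share takes no account of spread, and the SD of TAC3 over all animals lay at the 95.7th percentile of the array. The rank-sum test, which weighs the low LR animals less, gave an unadjusted p of 0.190 in its exact form. Without LR replicate 3 the difference was 0.34 ± 0.24 with a limma p of 0.168, and it was 0.35 with the array background as a covariate. As for KISS1, the SD in LR was the larger, by a factor of 2.15 (reached by 0.943% of probe sets). Without LR replicate 3 the factor was 1.69 (2.53%). These shares are favoured by the choice in the same way.

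NPVF (chromosome 18, 47082678 to 47087651) encodes the RFamide-related peptides. It ran from 4.08 through 4.68 to 6.46 in HR animals and from 4.38 through 5.11 to 6.17 in LR animals. In HR, 3 animals with values of 5.99 to 6.46 stood apart from the other 7, while the LR animals were spread more evenly. These 3, HR replicates 6, 8 and 9, also had the lowest array background in HR (3.87, 3.73 and 3.74). Whether the background set their NPVF values was not tested. The means of 5.03 ± 0.81 in HR and 5.09 ± 0.56 in LR (SD, n = 10 each) differed by -0.07 ± 0.29 with a limma p of 0.814. The difference was -0.15 ± 0.29 without LR replicate 3 and -0.37 with array weights (adjusted p = 0.702). Over all 20 animals the SD of 0.68 exceeded that of 94.1% of probe sets, a share similar to the 95.7% of TAC3.

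**Figure D2:**
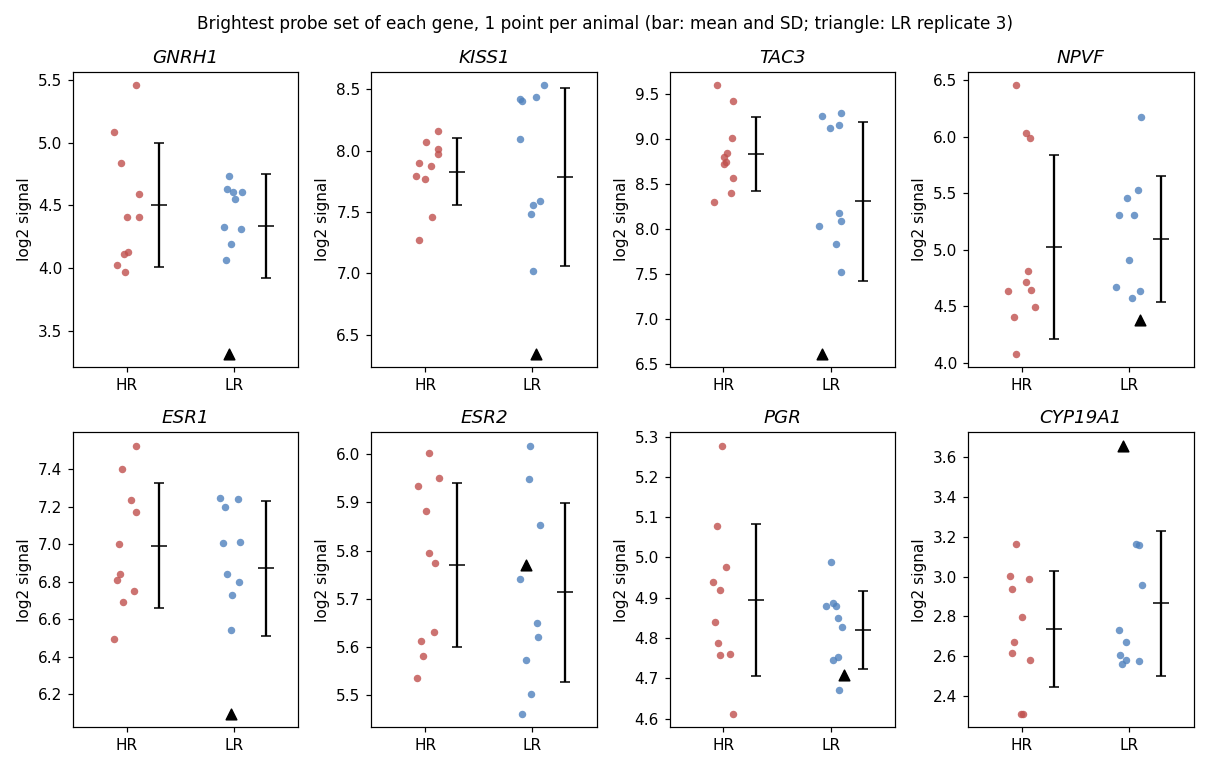
Log2 signal of the brightest probe set of each of the 8 genes, with 1 point per animal, HR at the left and LR at the right of each panel, and bars for mean and SD (n = 10 each). The vertical scale differs between panels. LR replicate 3, drawn as a triangle, is the lowest animal for GNRH1, KISS1, TAC3 and ESR1 and the highest for CYP19A1, and the 6 low LR animals of TAC3 lie below all HR animals.

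ESR1 (chromosome 1, 14217032 to 14604906) encodes oestrogen receptor alpha, which in mice carries the oestrogen feedback on kisspeptin neurons. Probe set 1 ran from 6.49 through 6.92 to 7.53 in HR animals and from 6.10 through 6.92 to 7.25 in LR animals. The medians were equal to the second decimal, 2 HR animals were above all LR animals, and LR replicate 3 was again the lowest. Means of 6.99 ± 0.33 in HR and 6.87 ± 0.36 in LR (SD, n = 10 each) gave a difference of 0.12 ± 0.15 with a limma p of 0.431. Probe sets 2, 3 and 4 differed by 0.00 ± 0.11, 0.07 ± 0.15 and 0.13 ± 0.17. The differences of probe sets 1 to 4 without LR replicate 3 were 0.03, -0.07, -0.03 and 0.00. Probe sets 1 to 4 and 7 can each bind several transcripts, so part of their signal may come from elsewhere.

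Probe set 5 of ESR1 had the difference between HR and LR that lay farthest from those of the other probe sets of the gene. It ran from 4.67 through 5.63 to 6.31 in HR animals and from 4.89 through 5.94 to 6.49 in LR animals, with means of 5.58 ± 0.44 in HR and 5.87 ± 0.46 in LR (SD, n = 10 each). The groups overlapped, 2 LR animals lay above every HR animal, and the difference was -0.29 ± 0.19 with a limma p of 0.142 and an adjusted p of 0.916. Without LR replicate 3 it was -0.40 ± 0.17 (unadjusted limma p = 0.0294, adjusted p = 1). Probe sets 6 and 7, with means of 2.62 and 1.66, lay among the dimmest of the array and differed by 0.13 ± 0.14 and 0.02 ± 0.12.

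Within ESR1, probe sets 1 to 4 moved together between animals. All 6 pairs among probe sets 1 to 4 were correlated, with r between 0.689 and 0.794 and adjusted permutation p between 0.00075 and 0.0159, whereas 0 of the 15 pairs with probe set 5, 6 or 7 passed by Pearson. By Spearman's rho 1 of the 6 passed, probe sets 1 and 4 (0.684, adjusted p = 0.0142), and so did 1 of the 15, probe sets 4 and 7 (rho = 0.612, adjusted p = 0.0334, with r = 0.324). The r of the 6 pairs lay between 0.322 and 0.671 without LR replicate 3. Probe set 5 had r between 0.117 and 0.421 with the first 4, and between 0.508 and 0.765 once both were regressed on the array background, with which it ran in the opposite direction (r = -0.501, permutation p = 0.0240, adjusted over 18 probe sets 0.0540, and rho = -0.553, adjusted p = 0.0446). This last relation was -0.808 within HR, -0.02 within LR, -0.742 without LR replicate 3 and -0.222 without LR replicate 8 and HR replicate 5.

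**Figure D3:**
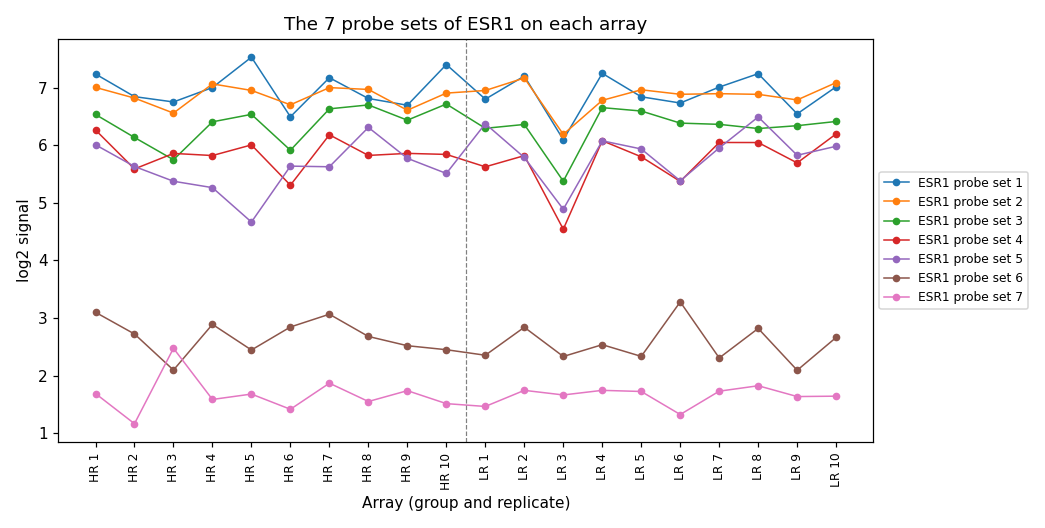
Log2 signal of the 7 ESR1 probe sets on each of the 20 arrays, HR animals at the left and LR animals at the right, with lines joining the values of 1 probe set. Probe sets 1 to 4 dip together at LR replicate 3 (6.10, 6.19, 5.38 and 4.54), while probe sets 6 and 7 stay low throughout. Levels of different probe sets cannot be set against each other.

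ESR2 (chromosome 1, 193823666 to 193907330), the gene of oestrogen receptor beta, varied little between animals. Probe set 1 ran from 5.54 through 5.78 to 6.0 in HR and from 5.46 through 5.70 to 6.02 in LR, and the groups overlapped almost completely. Its SD of 0.18 over all animals lay at the 5.61st percentile of the array, and the difference was 0.06 ± 0.09 with a 95% interval from -0.13 to 0.24 (limma p = 0.542). Probe set 2, with a mean of 2.44, differed by -0.05 ± 0.13, and by 0.02 ± 0.12 without LR replicate 3.

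PGR (chromosome 9, 32035684 to 32129776), the gene of the progesterone receptor, is induced by oestrogen in hypothalamic neurons of rodents. Its probe set 1 ran from 4.61 through 4.88 to 5.28 in HR animals and from 4.67 through 4.84 to 4.99 in LR animals, with 2 HR animals above and 1 HR animal below the whole LR range. Means were 4.89 ± 0.19 in HR and 4.82 ± 0.10 in LR (SD, n = 10 each), with a difference of 0.08 ± 0.08 and a limma p of 0.367. The SD over all animals was 0.15, at the 2.27th percentile of the array. The dim probe set 2, with a mean of 2.40, differed by 0.09 ± 0.16, and by 0.15 ± 0.16 without LR replicate 3.

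CYP19A1 encodes aromatase, and in the pig it has near-identical neighbours, CYP19A2 and CYP19A3. In Sscrofa11.1 the gene lies on chromosome 1 from 120596235 to 120627806, between CYP19A3 (120476890 to 120556103) and CYP19A2 (120652172 to 120695899). Transcripts of one may bind probes of another, so the gene behind each value is uncertain. Probe set 1 of CYP19A1 ran from 2.31 through 2.73 to 3.16 in HR animals and from 2.56 through 2.70 to 3.66 in LR animals, the last value being LR replicate 3. With means of 2.74 ± 0.29 in HR and 2.87 ± 0.36 in LR (SD, n = 10 each) it differed by -0.13 ± 0.14 (limma p = 0.379), or -0.04 ± 0.13 without LR replicate 3, and probe set 2, with a mean of 1.61, by -0.07 ± 0.10. Both means lay in the lowest 17.3% of probe sets.

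The probe set 1 assigned to CYP19A3 was brighter relative to the array (mean 5.61) and more variable. It ran from 4.79 through 5.17 to 6.43 in HR animals and from 4.81 through 5.80 to 7.77 in LR animals, with LR replicate 3 at the top, as for CYP19A1. Its difference was -0.48 ± 0.29 with a limma p of 0.109, and -0.27 ± 0.22 without LR replicate 3. The other CYP19A3 probe set differed by -0.23 ± 0.24, or -0.06 ± 0.20 without that animal, and the 2 of CYP19A2 by 0.25 ± 0.19 and 0.13 ± 0.17.

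Some of these genes varied together from animal to animal. Among the 28 pairs of the 8 genes, each by its brightest probe set, 4 had a Pearson correlation with an adjusted permutation p under 0.05 (two-sided, 100000 permutations), all positive and all among GNRH1, KISS1, TAC3 and ESR1. By Spearman's rho 3 of the 4 passed. With LR replicate 3 left out, 0 of the 4 passed (adjusted p between 0.054 and 0.2), and the 1 pair that did was GNRH1 and NPVF, in the negative direction. After both genes of a pair had been regressed on the array background, 0 of the 28 passed (adjusted p of the 4 between 0.0644 and 0.206).

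The closest pair was GNRH1 and ESR1, with r = 0.749 (adjusted p = 0.00672) and rho = 0.714 (adjusted p = 0.0185). It had r = 0.755 within HR and 0.736 within LR, 0.679 without the 2 animals farthest from the GNRH1 median, 0.627 without LR replicate 3 and 0.639 after regression on the background (unadjusted permutation p = 0.00198, 0.00386 and 0.00230 for the last 3). The pair thus kept its direction in both groups and in each of these subsets. With the probe sets of each gene averaged it missed the threshold (r = 0.610, adjusted permutation p = 0.0502). The brightest probe sets of both genes can bind several transcripts.

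KISS1 and TAC3 had r = 0.740 (adjusted p = 0.00728) and rho = 0.620 (adjusted p = 0.0427). Their r was 0.589 within HR and 0.820 within LR, 0.521 without the 2 animals farthest from the KISS1 median (unadjusted permutation p = 0.0260) and 0.560 without LR replicate 3 (p = 0.0135). LR replicate 6 departed from this relation, with the highest KISS1 value of all animals (8.53) beside a TAC3 value of 8.03.

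GNRH1 and KISS1 had r = 0.662 (adjusted p = 0.0170) and rho = 0.624 (adjusted p = 0.0427), with 0.506 within HR and 0.879 within LR, and 0.468 without LR replicate 3 (unadjusted permutation p = 0.0432). Without the 2 animals farthest from the GNRH1 median r was 0.515 (p = 0.0285). TAC3 and ESR1 had r = 0.639 (adjusted p = 0.0172), but rho was 0.490 (adjusted p = 0.161) and r was 0.315 without the 2 farthest animals (unadjusted permutation p = 0.201). GNRH1 and TAC3 narrowly missed the threshold (r = 0.579, adjusted p = 0.0506), and KISS1 and ESR1 had r = 0.381. Over all 20 animals 0 of the 22 pairs that include NPVF, ESR2, PGR or CYP19A1 passed.

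GNRH1 and NPVF had r = -0.396 (adjusted p = 0.262) and rho = -0.520 (adjusted p = 0.144) over all animals. Without LR replicate 3, which was low in both, r was -0.667 with an adjusted permutation p of 0.0468, and without it and HR replicate 7, the animals farthest from the GNRH1 median, it was -0.676. The relation differed between subsets, with r of -0.641 within HR, 0.03 within LR and -0.01 after regression on the background. Both genes moved with that background, in opposite directions, as given next.

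**Figure D4:**
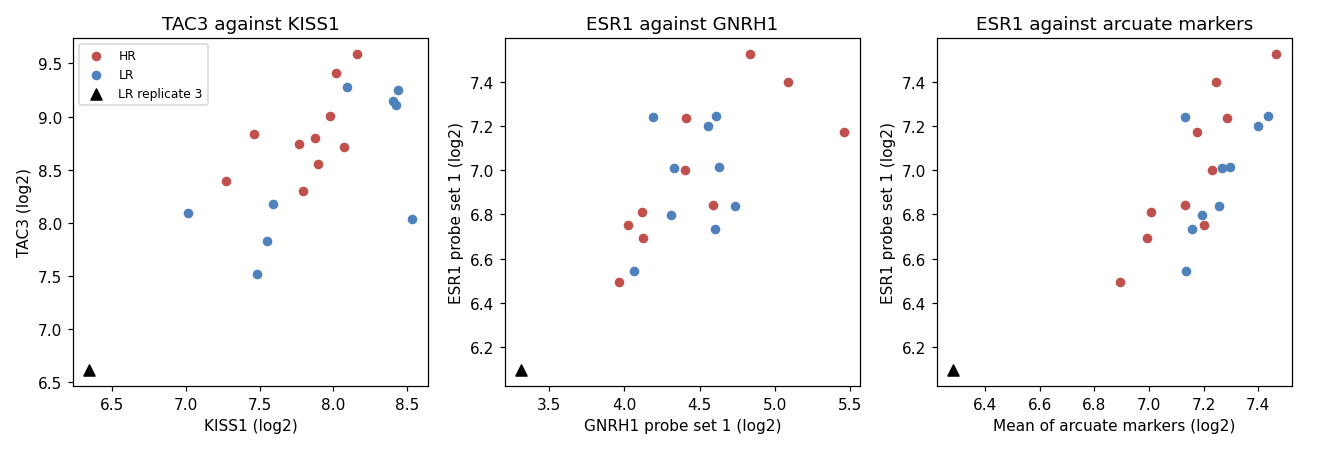
Log2 signals of 20 animals for TAC3 against KISS1 (left), ESR1 against GNRH1 (middle) and ESR1 against the mean of 10 arcuate markers (right), with HR in red, LR in blue and LR replicate 3 as a triangle. Both groups share each trend (r = 0.740, 0.749 and 0.816), and LR replicate 3 is the lowest animal on both axes of every panel.

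The 4 genes that varied together also moved with the array background, which was taken as the mean of 69 control probe sets that match no known transcript. Of the 18 probe sets 7 were correlated with it at an adjusted permutation p under 0.05, namely TAC3 (r = 0.675), KISS1 (0.662), GNRH1 probe set 1 (0.616) and ESR1 probe set 1 (0.517) in the positive direction, and ESR2 probe set 2 (-0.654), NPVF (-0.629) and PGR probe set 2 (-0.617) in the negative one. By Spearman's rho 5 passed, namely TAC3, KISS1, GNRH1 probe set 1, ESR2 probe set 2 and ESR1 probe set 5. Without LR replicate 8 and HR replicate 5, the arrays farthest from the median background, these 7 lay between 0.594 and 0.645 where positive and between -0.690 and -0.562 where negative. Over the 13 arrays left without the 7 of most extreme background, r was 0.381 to 0.520 for the 4 positive ones, -0.676 for NPVF, -0.321 for ESR2 probe set 2 and -0.194 for PGR probe set 2. Within HR and within LR the signs stayed as over all animals, and r for KISS1 was 0.656 in HR and 0.905 in LR. Background itself was 4.09 ± 0.26 in HR and 4.01 ± 0.17 in LR (SD, n = 10 each), a difference of 0.08 ± 0.10 with a two-sided permutation p of 0.397. Its part in the values above was not tested beyond these regressions.

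Tissue composition was followed by the mean of marker genes for 8 regions or cell types, which with the 8 genes made 64 pairs, of which 19 had an adjusted permutation p under 0.05 by Pearson and 7 by Spearman. The strongest was ESR1 with the arcuate markers, of which 10 of 12 were measured (POMC and TH were not analysed here) and none was among the dimmer 50% of probe sets. Their mean ran from 6.89 to 7.46 in HR animals and from 6.28 to 7.43 in LR animals. ESR1 had r = 0.816 (adjusted p = 0.00064) and rho = 0.731 (adjusted p = 0.0230) with this mean, 0.881 within HR and 0.849 within LR. The relation was 0.674 without the 2 animals farthest from the ESR1 median, 0.739 without LR replicate 3 and 0.738 after regression on the background (unadjusted permutation p = 0.00187, 0.00025 and 9e-05).

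TAC3, KISS1 and GNRH1 also went with the arcuate mean, with r = 0.695, 0.663 and 0.697 (adjusted p = 0.0145, 0.0200 and 0.00988). By rho TAC3 and GNRH1 passed (adjusted p = 0.0374 and 0.0317) and KISS1 did not (0.133). Their r was 0.392, 0.303 and 0.487 without LR replicate 3 (unadjusted permutation p = 0.0966, 0.208 and 0.0340). Within HR, which does not hold that animal, r was 0.674 for TAC3, 0.301 for KISS1 and 0.531 for GNRH1. The arcuate mean had r = 0.618 with the array background. After regression on it the 3 genes had 0.478, 0.431 and 0.511 (unadjusted permutation p = 0.0346, 0.0574 and 0.0307). Over the 13 arrays without extreme background they had 0.212, 0.111 and 0.326. Of the measured arcuate markers only PRLR ran against TAC3 and KISS1 (r = -0.20 and -0.32), and ISL1 had 0.15 and 0.11. TAC3 went more closely with the mean of the 14 measured hypothalamus markers (r = 0.797, adjusted p = 0.00277), which ran from 8.02 to 8.60 in HR and from 7.54 to 8.48 in LR, and r was 0.635 without LR replicate 3. That mean had r = 0.789 with the array background. After regression on the background TAC3 had 0.582 with it (unadjusted permutation p = 0.00814), and 0.440 over the 13 arrays without extreme background. Of its members only PMCH had a negative r with TAC3 (-0.15). TAC3 ran against the mean of 9 neuron markers (r = -0.782, adjusted p = 0.0016, and -0.689 without LR replicate 3), which lay between 9.20 and 10.27 in HR and between 9.58 and 10.57 in LR. That neuron mean itself had r = -0.868 with the array background. Its members did not all go the same way, since RBFOX3 (0.58) and SYN1 (0.53) had a positive r with TAC3 while the other 7 lay between -0.79 and -0.60. The same mean also passed against GNRH1, KISS1 and ESR1 (r = -0.636, -0.633 and -0.684). GNRH1 and ESR1 ran against the thalamus markers (r = -0.698 and -0.676), whose mean lay between 6.44 and 6.85 in HR and between 6.48 and 7.82 in LR, and these were -0.536 and -0.458 without LR replicate 3. Without the 2 animals farthest from each gene's median the values were -0.382 and -0.434 (unadjusted permutation p = 0.118 and 0.0724). Within HR they were -0.850 and -0.734, and after regression on the background -0.638 and -0.606 (p = 0.00461 and 0.00332).

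The pituitary markers passed with TAC3, KISS1 and GNRH1 (r = 0.697, 0.644 and 0.633, adjusted p = 0.00864, 0.0145 and 0.0149). Of 12 such markers 10 were measured, only 3 of them in the brighter 50% of probe sets, and their mean lay between 3.78 and 4.39 in HR and between 3.48 and 4.16 in LR. It had r = 0.778 with the array background, after regression on which the values were 0.371, 0.273 and 0.311 (unadjusted permutation p = 0.105, 0.243 and 0.183). Striatum and pallium markers, of which 6 of 10 were measured, passed with TAC3 (r = 0.571) and against NPVF (-0.564). After regression on the background, with which their mean had r = 0.812, these were 0.05 and -0.12. Their members opposed each other with TAC3, as DRD2 had r = 0.71 and PDE10A -0.76. The hypothalamus markers passed by Pearson but not by rho with GNRH1 (r = 0.624), KISS1 (0.626) and ESR1 (0.737). Without LR replicate 3 these were 0.377, 0.311 and 0.571, and after regression on the background 0.284, 0.225 and 0.627. The mean of the 7 measured tanycyte markers passed with 0 of the 8 genes, but its members opposed each other. With TAC3, CRYM had r = 0.62 and RAX 0.53, while DIO2 had -0.64 and COL25A1 -0.71. The choroid plexus mean also passed with 0 of the 8 genes. How far dissection, cell make-up or array background set these relations was not tested.

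LR replicate 3 was the lowest of the 20 animals in 8 of the 18 probe sets and the highest in 1. It had 3.32 for GNRH1 probe set 1, against 3.97 to 5.46 in all others, 6.35 for KISS1 against 7.02 to 8.53, 6.61 for TAC3 against 7.52 to 9.59, and 6.10 for ESR1 probe set 1 against 6.49 to 7.53. All 8 of its lowest values belonged to GNRH1, KISS1, TAC3 and ESR1 probe sets, and it lay inside the range of the others for NPVF, ESR2 and PGR.

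Beyond the 8 genes, 5 lists of related genes held 117 genes, of which 96 were measured, each by its brightest probe set. At the adjusted threshold 0 of the 96 differed between HR and LR, and 5 had an unadjusted limma p under 0.05 (3 higher and 2 lower in HR), beside 4.35% of all 13664 genes (1.51% higher and 2.83% lower). The smallest adjusted p in the lists was 0.916.

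Among the partners and receptors of the peptides 15 of 19 genes were measured, with a median difference of 0.03 against 0.01 over all genes. QRFPR, a receptor of the RFamide peptide QRFP, ran from 5.71 through 5.96 to 6.40 in HR animals and from 5.57 through 5.74 to 5.95 in LR animals, which gave a difference of 0.22 ± 0.09 (unadjusted limma p = 0.0269). TACR1, the substance P receptor, ran from 5.37 through 5.97 to 6.59 in HR and from 5.85 through 6.38 to 6.78 in LR, which gave -0.31 ± 0.15 (unadjusted limma p = 0.0485). The groups overlapped in both. QRFP itself differed by 0.14 ± 0.10, and by 0.08 without LR replicate 3.

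In steroid synthesis and metabolism 20 of 24 genes were measured, with a median of 0.02. CYP2D25, which in the pig hydroxylates vitamin D, ran from 4.82 through 5.37 to 5.62 in HR animals and from 4.68 through 4.88 to 5.45 in LR animals. Its difference of 0.37 ± 0.11 had the smallest p of all 5 lists (unadjusted limma p = 0.00391). AKR1C1, of the aldo-keto reductases that act on steroids, differed by 0.36 ± 0.17 (unadjusted p = 0.0435) at a low mean of 3.16, and FDX1, the ferredoxin that passes electrons to mitochondrial steroid hydroxylases, by -0.16 ± 0.08. The probe sets of all 3 can bind several transcripts.

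None of the 15 measured of 19 steroid receptors and coregulators reached an unadjusted p under 0.05, and their median was -0.03. The coactivators NCOA1 and NCOA3 differed by -0.34 ± 0.25 and -0.24 ± 0.22, and the membrane component PGRMC2 by 0.09 ± 0.08. Of 31 genes of GnRH neuron migration and development 25 were measured with none at that level and a median of 0.05, among them the chemokine gene CXCL12 (-0.24 ± 0.13), the growth factor gene FGF8 (0.27 ± 0.15) and the guidance gene NTN1 (0.16 ± 0.10). Of 24 genes linked to the timing of puberty 21 were measured with a median of -0.01. EED, a core subunit of the Polycomb repressor that silences KISS1 before puberty in rats, had 5.66 to 6.73 in HR animals and 6.06 to 6.72 in LR animals, which gave -0.30 ± 0.12 (unadjusted limma p = 0.0254). Over the 20 animals EED, NCOA1 and NCOA3 ran against the array background, with r of -0.83, -0.89 and -0.91 as a description. YY1 differed by -0.15 ± 0.10 and NKX2-1, a transcription factor of the ventral hypothalamus, by 0.33 ± 0.26, or 0.10 without LR replicate 3, which had the lowest value of all animals (6.06).

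The genes most like each member were ranked by Pearson's r over the 20 animals after both had been regressed on the array background, among 10290 genes. For TAC3 they were FMOD (0.82), GPR139 (0.81) and SLC7A14 (0.79). Before regression FMOD and GPR139 had 0.91 and 0.87 with TAC3, while SLC7A14 had 0.13. ESR1 was most like ADGRG1 (0.85), IGSF1 (0.80) and KCNQ5 (0.80), and KCNQ5 also led the list of GNRH1 (0.77), followed by S100A11 (0.76) and ESR1 probe set 3 (0.74). KISS1 was followed by ELOVL2 (0.76), CCDC80 (0.76) and HMGN3 (0.74), of which ELOVL2 had -0.07 before regression. The first place went to RPS3 for NPVF (0.74), to RNF183 for ESR2 (0.76), to CRYBA2 for PGR (0.81) and to GABBR2 for CYP19A1 (0.83). CYP19A3 came after GABBR2 and KCNJ3 for CYP19A1 (0.78, and 0.63 without LR replicate 3). Each of these is the top of a ranking over many genes, so its height is favoured by the choice, and the values are a description with no test.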

How the data were processed

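Hypothalamus RNA of 10 HR and 10 LR pigs was hybridised to 1 array each. The deposited log2 values come from RMA (robust multichip average), which the authors applied after scanning with GCOS 1.1.1, per the labels' processing notes. RMA removes a modelled background, gives all arrays one common distribution and combines the probes of a probe set. A shift of most transcripts in one direction therefore cannot be seen, and differences of dim probe sets come out too small. The methods describe a filter by detection calls. It was not applied to the table used here, which lists 47845 probe sets, and no such calls were used.

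Here 123 control probe sets were set aside, and all other 47722 were kept because several members are dim. The platform annotation gave 1 symbol to 26426 of them and none to 21296. Of the 13755 symbols, 13394 were found in RefSeq (Sscrofa11.1, used for positions) and 264 others through a synonym. HR and LR were compared in R 4.3.3 by limma 3.58.1 (functions lmFit and eBayes, HR minus LR, no covariate, two-sided), with Benjamini-Hochberg adjustment over all 47722 probe sets and a threshold of 0.05. Correlations were tested by two-sided permutation with 100000 permutations and adjusted within each family of pairs. Scripts were tested on simulated data.

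Named genes are all members, the 3 genes of smallest p in each list, and the 3 most similar genes of each member. Members and lists were chosen with earlier results of these data known. The replicate numbers only name animals, and the p-values set differences and correlations against the variation between these animals. The number of arrays limits the precision. Alternatives covered normalisation, centring, array weights, trended variance, a rank-sum test, covariates, a filter, averaging the probe sets of each gene and leaving out each array. Leaving out arrays of extreme background in the correlations, and the spread without LR replicate 3, were chosen after seeing the data. No sequences were used here.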

Additional observations from a re-analysis of the deposited data

Results flagged for a closer look

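Of 66 groups of 10 animals examined, 10 held an animal farther from its nearest neighbour than Dixon's limit at the 95% level allows, a limit that chance exceeds in about 1 in 20 groups. LR replicate 3 accounted for 7 of them. It was the lowest LR animal for GNRH1 probe set 1 (3.32), for ESR1 probe sets 2, 3 and 4 (6.19, 5.38 and 4.54), for QRFP (5.43) and for NKX2-1 (6.06), and the highest for ESR2 probe set 2 (3.07). The same animal had the lowest means of the hypothalamus, arcuate and pituitary markers and the highest means of the thalamus and neuron markers of all 20. In HR animals the limit was passed by HR replicate 10 for the dim CYP19A1 probe set 2 (2.24, the highest), by HR replicate 8 for QRFP (5.60) and by HR replicate 5 for YY1 (6.20).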

How the results depend on the processing

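The result that depended most on the processing was the count of correlated pairs among the 8 genes. It was 4 of 28 over all animals, 0 after regression on the background, 2 with the probe sets of each gene averaged, 0 without the 7 arrays (5 HR and 2 LR) whose background lay over 1 SD from the mean, and 1 to 5 over the sets of 19 arrays. The 1 was GNRH1 and NPVF without LR replicate 3 (r = -0.667), where 0 of the original 4 passed, and both of the 2 were among the 4. Leaving out those 7 left 13 arrays, which widens every estimate, and otherwise the cause was not tested. The count of probe sets correlated with the background was 6 to 8 over the sets of 19 arrays. No probe set of the 8 genes or the lists passed the adjusted threshold under any alternative, with a smallest adjusted p of 0.579 (without HR replicate 8). TAC3 stayed higher in HR, between 0.19 without the arrays of extreme background and 0.64 without LR replicate 7, with 0.40 under array weights. Differences near 0 changed sign. KISS1 had -0.11 with array weights, -0.10 with background and -0.0833 with Y-linked genes as a covariate, and -0.25 without arrays of extreme background. In the rank-sum test KISS1 had -0.13. There, as for the rank-sum values below, the difference was the median over all pairs of 1 HR and 1 LR animal. NPVF had 0.10 with background and 0.0637 with Y-linked genes as a covariate. The Y-linked mean was lowest (5.70) in HR replicate 5, which had the highest background (4.44). It was highest (6.96) in HR replicate 9, at a low background (3.74). The second lowest was HR replicate 4 (5.84, background 4.39) and the second highest LR replicate 3 (6.83, background 3.76). At both ends the Y-linked mean thus ran against the background. Values with this covariate therefore cannot be read as an adjustment for sex apart from the background. ESR1 probe set 1 had -0.0244, probe set 3 -0.23, PGR probe set 1 -0.0228 and NCOA3 0.004 without arrays of extreme background. ESR1 probe set 2 had 0.0172 with repeated quantile normalisation and 0.0036 in the rank-sum test, probe set 3 -0.0301 with array weights, and probe set 7 -0.0015 after centring and -0.0495 in the rank-sum test. ESR2 probe set 2 had 0.0251 with background and 0.0195 with Y-linked genes as a covariate, and CXCL12 0.0299 as the mean of its probe sets. Leaving out 1 array moved ESR1 probe set 2 between -0.075 and 0.0337, probe set 3 between -0.0346 and 0.14, probe set 7 between -0.0715 and 0.074, ESR2 probe set 2 between -0.13 and 0.0181, KISS1 between -0.12 and 0.12 and NPVF between -0.23 and 0.0516. No paired analysis was possible because the labels give HR and LR animals no shared numbers. The dim probe sets of ESR1, ESR2, PGR and CYP19A1 have means under 3, where a true difference would be compressed.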
